A study of Mus musculus with 12 samples.

Results

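Serotonin made outside the brain acts on lung vessels through a short chain of proteins, and 7 genes of that chain were followed here in whole mouse lung. They were chosen by name, as Tph1 for synthesis, Slc6a4 for uptake, Htr1b, Htr2a and Htr2b as receptors, and Maoa and Maob for breakdown. Each of the 7 had 1 probe set among the 24704 genes tested, so all 7 were measured. Expression was profiled on Affymetrix arrays, in 4 groups of 3 lungs. All mice carried floxed Nfat5 alleles, so floxed Nfat5 is common to every group. Control mice (Nfat5fl/fl) received the solvent miglyol. Knockout mice (Nfat5(EC)-/-) received 1 mg of tamoxifen a day for 5 days to delete the gene for the transcription factor NFAT5 in endothelial cells. The sources used here name no driver for the deletion, and tamoxifen and the deletion cannot be told apart. Males and females were treated at an age of 10 to 12 weeks, and after 2 to 3 weeks of recovery a group of each genotype breathed hypoxic air for 21 days while another stayed in normoxia. The design text counts 4 mice a group and says that preparations with other tissue, or with a poor expression response to hypoxia, were left out by the authors. The hypoxia comparisons therefore rest on lungs chosen in part by their response.

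Tryptophan hydroxylase starts serotonin synthesis, and the product is carried in blood mainly by platelets. The serotonin transporter clears it into endothelial cells, smooth muscle cells and platelets, and monoamine oxidase A degrades it in lung endothelium. In pulmonary arteries the 1B and 2A receptors mediate contraction and the 2B receptor has been tied to vascular remodelling, and the pathway is long studied in pulmonary hypertension. The comparisons ask whether chronic hypoxia, the loss of endothelial NFAT5, or both together altered the lung RNA of these genes.

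Maoa was the only member whose level passed the test in any of the 7 contrasts, and it did so in knockout lungs, where it was 1.31-fold lower in hypoxia than in normoxia. In control lungs 0 of the 7 members passed with hypoxia, where 11.5% of all genes did. In knockout lungs 1 of 7 passed, against 1.14% of all genes. Between genotypes 0 of 7 passed in normoxia and 0 of 7 in hypoxia, where 0.00405% and 0% of all genes did. A gene was called at a limma adjusted p under 0.05 (Benjamini-Hochberg over all genes). At an unadjusted p under 0.05, 0 members passed with hypoxia in control lungs (27.4% of all genes), 1 in knockout lungs (12.6%), 1 between genotypes in normoxia (7.26%) and 2 in hypoxia (5.1%). The member changes had a median of -0.03 on the log2 scale with hypoxia in control lungs and -0.05 in knockout lungs, against medians of 0.01 and 0.0033 over all genes.

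**Figure D1:**
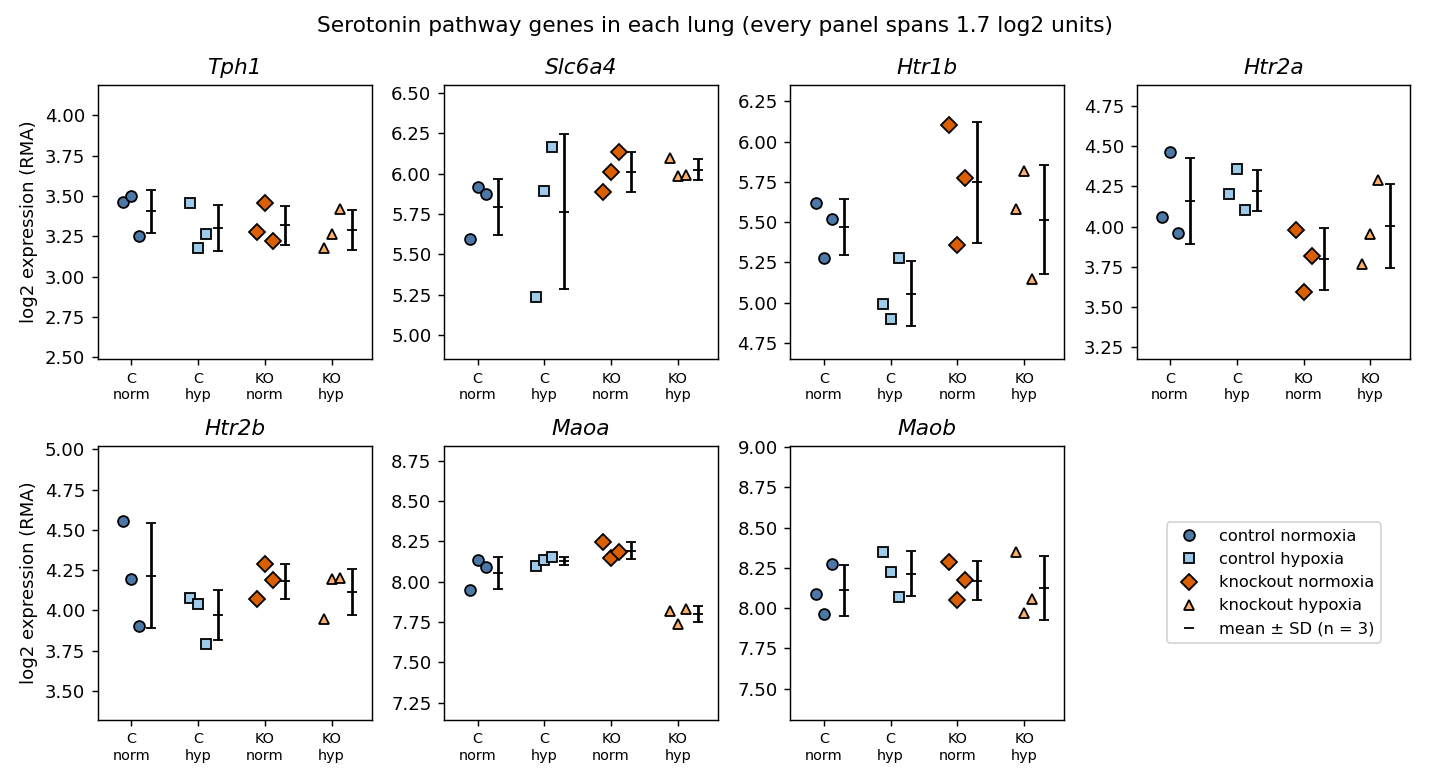
Log2 expression of the 7 genes in each of the 12 lungs (C is control, KO is knockout), with mean and SD of 3 lungs beside each group; every panel spans the same range. Only Maoa shows a group that lies apart from the other 3, the knockout lungs in hypoxia at 7.74 to 7.83.

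Values are log2 expression made by the authors with RMA, and a level is not compared between genes because probe sets differ in brightness. Arrays of 1 group correlated at 0.989 to 0.994. The log2 difference of Nfat5, knockout minus control, was -0.44 ± 0.15 (SE) in normoxia (limma adjusted p = 0.62) and -0.08 ± 0.15 in hypoxia (adjusted p = 0.97). Whole lung keeps the Nfat5 RNA of all other cells, so this checks the labels weakly. Markers of lung cells were high in all arrays, for example Pecam1, an endothelial adhesion protein, at 11.4 to 11.8 and Acta2, the actin of smooth muscle, at 10.4 to 10.8. Heart and fat RNA was uneven. The atrial hormone gene Nppa was 11.9 and 9.41 in knockout normoxia 2 and 4, against at most 8.44 elsewhere, and the brown fat gene Ucp1 reached 9.31 in the former and 7.66 in the first hypoxic control, with the other lungs at 4.28 or less. Sex was not balanced over oxygen. The mean of 3 Y-linked genes was 6.12 to 6.69 in 2 of 3 lungs of each normoxic group and 5.34 and 5.36 in 1 of 3 lungs of each hypoxic group, against 3.26 or less in the others. Results without the 3 arrays high in Nppa or Ucp1 are given where they bear on a call. Vessels are a part of whole lung, and fewer cells of a type cannot be told apart from less RNA per cell.

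Maoa encodes the oxidase that degrades serotonin in lung endothelium. The stretch around its start is printed because it is the member that passed the test. It is the RefSeq promoter of 250 bases before to 50 bases after the start on the + strand of GRCm38.p6, chrX:16619448-16619747, 5′ to 3′. Capitals mark CCGCCC, the core of the GC box, searched on both strands (CCGCCC or GGGCGG).
Maoa: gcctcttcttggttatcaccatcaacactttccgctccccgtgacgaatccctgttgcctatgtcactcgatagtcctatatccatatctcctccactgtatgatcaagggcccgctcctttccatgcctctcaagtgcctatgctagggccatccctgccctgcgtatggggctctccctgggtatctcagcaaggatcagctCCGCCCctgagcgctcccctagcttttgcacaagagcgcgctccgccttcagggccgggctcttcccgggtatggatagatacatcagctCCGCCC
The core occurs 2 times in this window, and 35.7% of 32851 promoters of this length hold it at least once. The core letters of hypoxia response elements, ACGTG or GCGTG on either strand, occur 0 times here and at least once in 43.8% of promoters. Promoters were matched for 6 of the 7 members, all but Maob.

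In knockout lungs Maoa was 8.25, 8.14 and 8.19 in normoxia and 7.82, 7.74 and 7.83 in hypoxia (log2). All 3 hypoxic lungs lay below all 3 normoxic ones, with a gap wider than the range of either group. The difference was -0.39 ± 0.08 (limma SE, adjusted p = 0.035), with a 95% interval of -0.56 to -0.23. The exact two-sided permutation p was 0.1, the smallest that 3 against 3 allows. In this contrast 19.8% of all genes had no overlap between the groups, and 1 of the 7 members did.

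In control lungs Maoa was 7.95, 8.13 and 8.09 in normoxia and 8.10, 8.13 and 8.15 in hypoxia. These groups overlapped, as did those of the other 6 members in this contrast (27.7% of all genes did not), and the difference was 0.07 ± 0.08 with a 95% interval of -0.09 to 0.24 (adjusted p = 0.59). The difference between the changes in knockout and control lungs was -0.47 ± 0.11, or -0.70 to -0.23, and did not pass (limma interaction, adjusted p = 0.57, unadjusted p = 0.00097). By unadjusted p it stood at rank 31 of 24704 genes in that contrast, in which 0.00405% of genes passed. A genotype difference in the response of Maoa to hypoxia is therefore not shown.

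Between genotypes, the knockout lungs in hypoxia lay below the control lungs in hypoxia without overlap. That difference was -0.33 ± 0.08 (adjusted p = 0.95; unadjusted p = 0.00096, rank 17), in a contrast where 9.74% of all genes did not overlap. In normoxia the knockout lungs lay above the control lungs, also without overlap, by 0.14 ± 0.08 (adjusted p = 0.72), where 11.7% of genes did not overlap. These contrasts share groups with the hypoxia contrasts, so they do not give separate evidence. In order of mean level, Maoa was 7.80 ± 0.05 (SD, n = 3) in knockout hypoxia, 8.06 ± 0.10 in control normoxia, 8.13 ± 0.03 in control hypoxia and 8.19 ± 0.05 in knockout normoxia. Control normoxia overlapped control hypoxia, and control hypoxia overlapped knockout normoxia.

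The Maoa difference in knockout lungs lay between -0.45 and -0.37 over 20 alternatives, and 8 of the 20 kept the call. Many of these alternatives could not change the difference. They were leaving out a control lung or the dim genes, the intensity trend, the mean over probe sets and the fit of only these groups. The 8 that kept the call were all of that kind, and every setting that changed the difference lost the call. Leaving out 1 knockout lung gave adjusted p-values of 0.097, 0.10 and 0.11 for knockout hypoxia 2, 3 and 4, and 0.11, 0.096 and 0.088 for knockout normoxia 1, 2 and 4. Leaving out control hypoxia 4, which changes only the shared spread, gave 0.052. With the Y-linked mean as a covariate the difference of Maoa, an X-linked gene, was -0.38 (adjusted p = 0.081). Without the 3 arrays high in Nppa or Ucp1 the difference was -0.45 with 1 knockout normoxia lung left (adjusted p = 0.47). In that setting 7 genes in all passed, against 282 with every array.

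**Figure D2:**
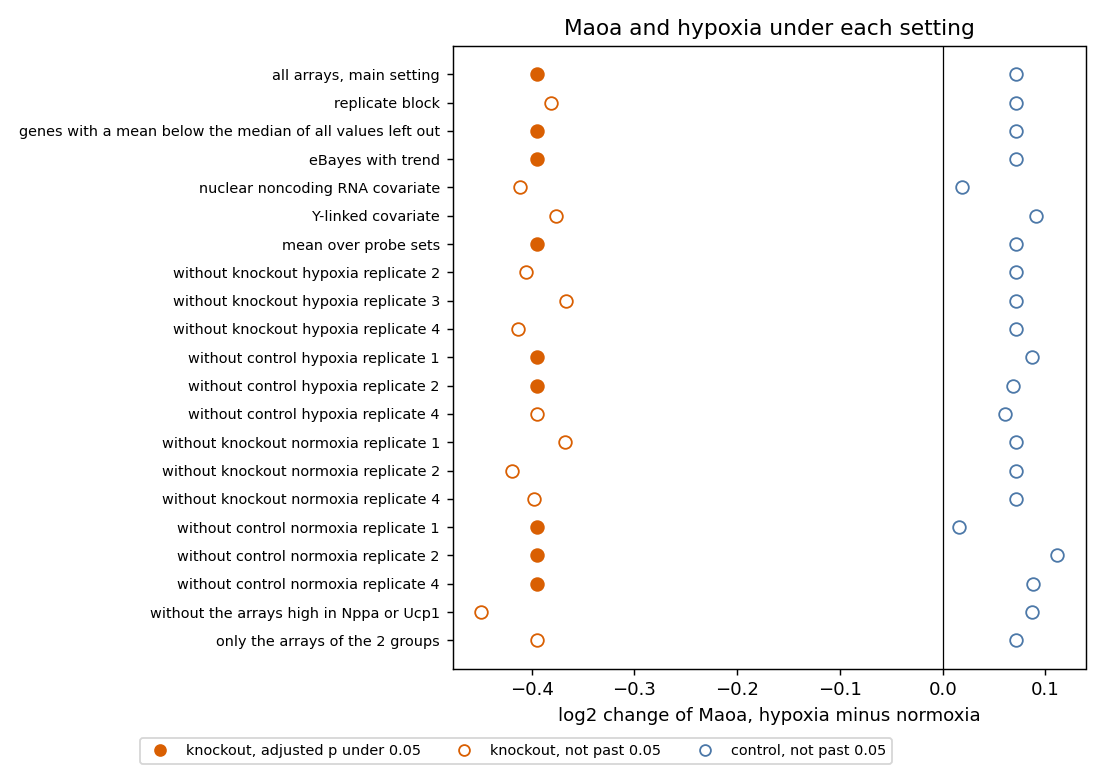
Log2 change of Maoa with hypoxia in knockout (orange) and control lungs (blue) under every setting, filled where the limma adjusted p was under 0.05. The knockout values lie between -0.45 and -0.37, and those that pass are all at -0.39, the value with all arrays. The control values lie between 0.02 and 0.11.

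Several marker lists moved in the same lungs. The mean of 10 endothelial markers was 10.24 to 10.45 in knockout normoxia and 9.96 to 10.1 in knockout hypoxia. With hypoxia in knockout lungs 3 of the 10 fell and 1 rose, against 1.14% of all genes called. The mean was also lower in hypoxia in control lungs, at 10.08 to 10.24 against 10.29 to 10.39, while Maoa was not. In control lungs too 3 fell and 1 rose, against 11.5% of all genes called. The VEGF receptor Kdr fell by 0.60 in knockout and by 0.39 in control lungs (log2), and the capillary pore gene Plvap fell by 1.35 and 1.16 (adjusted p = 0.0085, 0.018, 0.010 and 0.0079). Tek also fell in both genotypes. The rise was Emcn in both, by 0.71 in knockout and 0.60 in control lungs. Pecam1 and Cdh5 passed in neither. Between genotypes in hypoxia, the changes of all 10 endothelial markers lay below 0 in knockout minus control lungs. Their median was -0.14 (log2), against -0.0013 over all genes. There 0 of the 10 were called, and 4 did not overlap, against 9.74% of all genes. In the interaction 0 of the 10 had an unadjusted limma p under 0.05, against 8.25% of all genes. The mean of 10 heart muscle genes was 6.88 to 8.76 in knockout normoxia and 6.17 to 6.69 in knockout hypoxia, with 0 of 10 called. The changes of all 10 lay below 0, and 9 had an unadjusted limma p under 0.05, against 12.6% of all genes. The mean of 10 fat genes was 5.39 to 7.56 in knockout normoxia and 5.16 to 5.55 in knockout hypoxia, with 0 called. The mean of 9 pericyte genes moved the other way, from 6.79 to 6.86 in knockout normoxia to 7.02 to 7.31 in knockout hypoxia, with 0 called and 5 at an unadjusted p under 0.05. The mast cell mean was 4.98 to 5.03 and 4.90 to 4.92 in the same groups. The part of these marker lists and of sex in the Maoa difference was not tested beyond the fits given above.

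**Figure D3:**
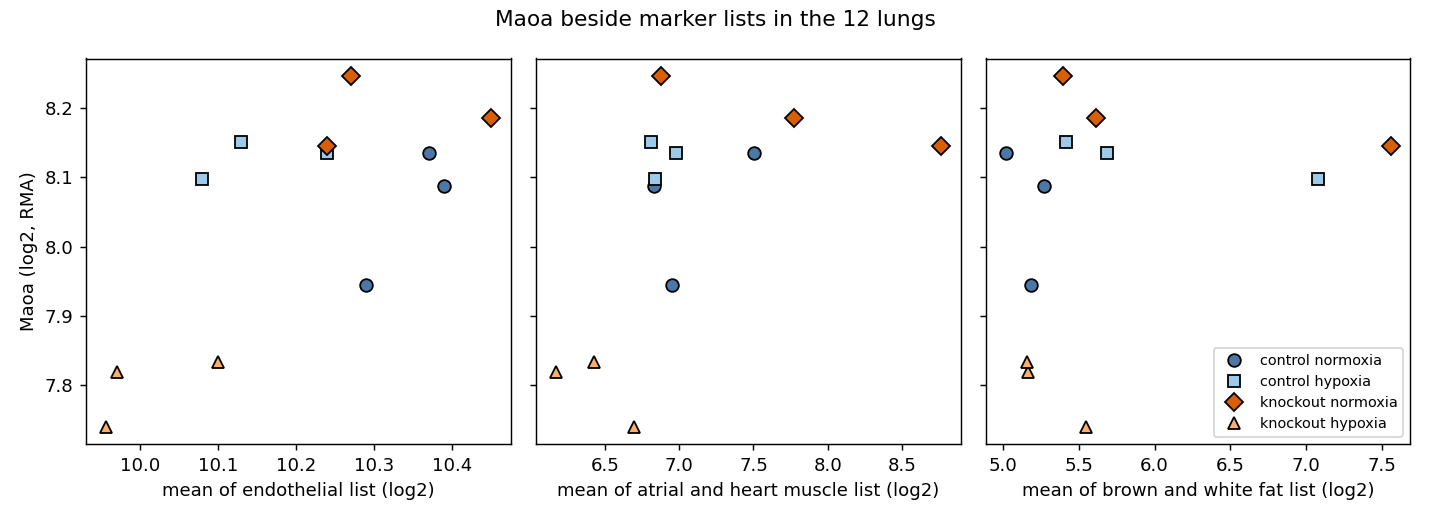
Maoa (log2) against the mean log2 level of the endothelial, heart and fat marker lists in the 12 lungs. The 3 knockout hypoxia lungs are lowest in Maoa and low in the endothelial list.

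By Pearson correlation over the 12 arrays, the genes most like Maoa were Ets1, an endothelial and lymphoid transcription factor (r = 0.937), Add3, a membrane skeleton protein (0.925), and Akap12, a scaffold for protein kinase A (0.901). They were picked as the highest of all genes without a placeholder symbol (such as those starting Gm or ending Rik), so the values are a description. Akap12 fell with hypoxia in knockout lungs by 0.38 (adjusted p = 0.039) and was -0.02 ± 0.08 in control lungs. Ets1 was -0.32 ± 0.09 in knockout lungs (adjusted p = 0.13).

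Maob encodes the second monoamine oxidase, which prefers phenylethylamine, and lies next to Maoa on the X chromosome with 0 annotated genes between them. It was 8.09, 7.97 and 8.28 in control normoxia, 8.35, 8.23 and 8.07 in control hypoxia, 8.29, 8.05 and 8.17 in knockout normoxia and 8.35, 7.97 and 8.06 in knockout hypoxia. All 4 groups overlapped. Its difference with hypoxia was 0.11 ± 0.12 in control lungs and -0.05 ± 0.12 in knockout lungs, with intervals of -0.16 to 0.37 and -0.32 to 0.22, and neither passed. The correlation between Maoa and Maob over the 12 arrays was 0.219.

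Tph1 encodes the peripheral tryptophan hydroxylase, the first step of synthesis. It was 3.46, 3.50 and 3.25 in control normoxia, 3.46, 3.18 and 3.26 in control hypoxia, 3.28, 3.46 and 3.22 in knockout normoxia, and 3.18, 3.27 and 3.42 in knockout hypoxia. All 4 groups overlapped. The difference with hypoxia was -0.11 ± 0.11 in control and -0.03 ± 0.11 in knockout lungs, and between genotypes it was -0.09 ± 0.11 in normoxia and -0.01 ± 0.11 in hypoxia. No detection calls were used here. As a rough gauge, chosen after seeing the data, 1088 olfactory receptor genes had means with a median of 2.87 and a 95th percentile of 3.76. The Tph1 mean over all arrays was 3.33, within the range of those genes. The means of the other members, from 4.05 to 8.16, lay above that percentile.

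Slc6a4 encodes the serotonin transporter. It was 5.59, 5.92 and 5.87 in control normoxia, 5.24, 5.90 and 6.17 in control hypoxia, 5.89, 6.01 and 6.14 in knockout normoxia and 6.10, 5.99 and 5.99 in knockout hypoxia. The lowest and the highest lung of all 12 were both hypoxic controls, a group with an SD of 0.48 against 0.06 to 0.18 in the others. The difference with hypoxia was -0.03 ± 0.19 in control lungs (95% interval -0.44 to 0.39) and 0.01 ± 0.19 in knockout lungs (-0.40 to 0.43). Without control hypoxia 1, the lowest lung and the one with fat RNA, the control value was 0.24 and did not pass. Averaged over both oxygen states Slc6a4 was 0.24 ± 0.13 in knockout minus control (limma adjusted p = 1.00; exact two-sided permutation p = 0.11).

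Htr1b encodes the 1B receptor, through which serotonin contracts pulmonary arteries. It was 5.62, 5.28 and 5.52 in control normoxia, 4.99, 4.90 and 5.28 in control hypoxia, 6.11, 5.36 and 5.77 in knockout normoxia, and 5.58, 5.82 and 5.15 in knockout hypoxia. Hypoxic controls were lowest by mean, 5.06 ± 0.20 (SD), and knockouts in normoxia highest, 5.75 ± 0.37, while neighbouring groups overlapped. The difference with hypoxia was -0.42 ± 0.20 in control lungs (adjusted p = 0.21) and -0.23 ± 0.20 in knockout lungs (adjusted p = 0.74). Averaged over genotypes it was -0.32 ± 0.14 (adjusted p = 0.16; exact permutation p = 0.075), in a contrast that called 14.7% of all genes and 0 of 7 members, with Htr1b and Maoa below an unadjusted p of 0.05 (28.4% of genes). Knockout minus control was 0.37 ± 0.14 averaged over oxygen states (adjusted p = 1.00; exact permutation p = 0.06), where 0% of genes passed. Among genes without a placeholder symbol, Scgb1c1, a secretoglobin, followed Htr1b most closely over the 12 arrays (r = 0.954).

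Htr2a encodes the 2A receptor of smooth muscle and platelets. It was 4.06, 4.46 and 3.96 in control normoxia, 4.20, 4.36 and 4.10 in control hypoxia, 3.98, 3.59 and 3.82 in knockout normoxia and 3.77, 3.95 and 4.29 in knockout hypoxia. Knockout normoxia was lowest by mean, and 1 of its lungs overlapped control normoxia. The Htr2a mean of that group, 3.80, was close to 3.76, the 95th percentile of the olfactory receptor gauge. Its lung at 3.59 lay below that percentile. The difference with hypoxia was 0.06 ± 0.16 in control lungs and 0.21 ± 0.16 in knockout lungs. Knockout minus control averaged over oxygen states was -0.29 ± 0.11, with an exact two-sided permutation p of 0.045 and a limma adjusted p of 1.00. At an unadjusted p under 0.05, Htr1b and Htr2a were the 2 of 7 members that passed in that contrast, against 4.26% of all genes.

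Htr2b encodes the 2B receptor. It was 4.55, 4.19 and 3.90 in control normoxia, 4.08, 4.04 and 3.79 in control hypoxia, 4.07, 4.29 and 4.19 in knockout normoxia and 3.95, 4.19 and 4.20 in knockout hypoxia. The spread of control normoxia, 0.33 (SD), exceeded its difference from any other group, and all groups overlapped. With hypoxia the difference was -0.25 ± 0.15 in control lungs, with an interval of -0.58 to 0.08, and -0.07 ± 0.15 in knockout lungs. Among genes without a placeholder symbol, the pseudogene Pisd-ps2 tracked it most closely (r = 0.963 over 12 arrays).

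**Figure D4:**
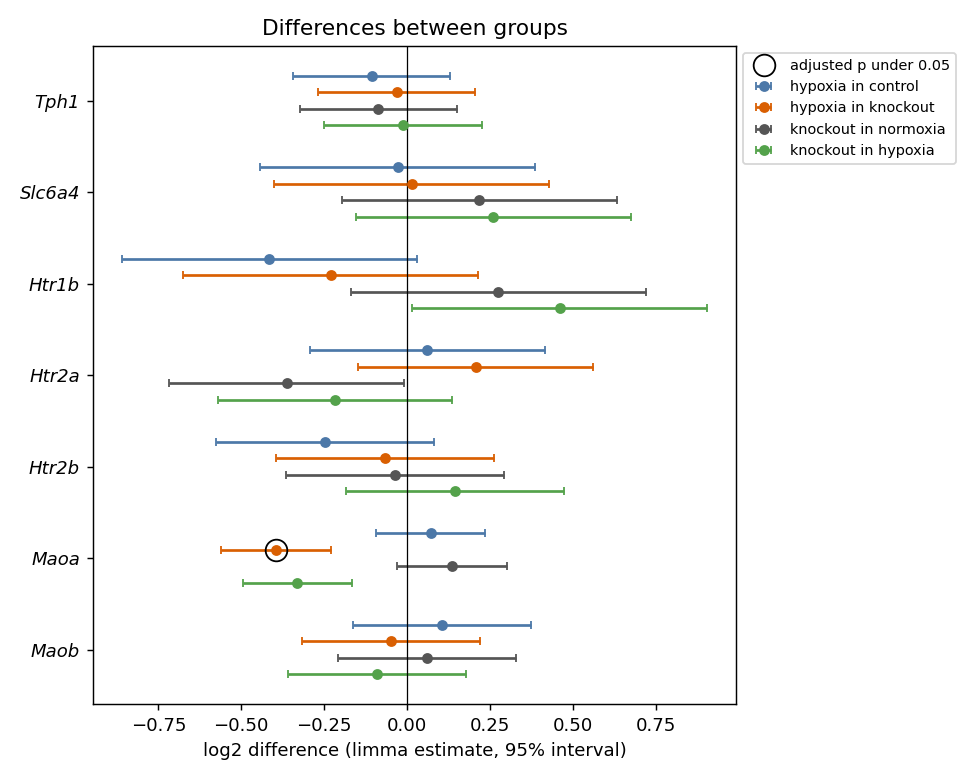
Log2 differences of the 7 genes in 4 comparisons with 95% intervals from limma, circled where the adjusted p was under 0.05. Maoa with hypoxia in knockout lungs is the only circled value, and the intervals of Htr1b are the widest.

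Outside the 7 members, 31 of 33 other genes of serotonin and tryptophan handling were measured. With hypoxia in control lungs 2 rose, 2 fell and 27 did not pass, against 11.5% called over all genes. In knockout lungs 0 of 31 passed, with 4 at an unadjusted p under 0.05 and 12.6% of all genes there. Averaged over genotypes 4 rose, 2 fell and 25 did not pass, against 14.7% over all genes. The median change of the list was 0.02 there, and 0.0070 over all genes. No other serotonin gene passed between genotypes or in the interaction; at an unadjusted p under 0.05 there were 1 of 31 in normoxia (7.26% of all genes), 3 in hypoxia (5.1%) and 2 in the interaction (8.25%).

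The 6 genes called over both genotypes sit at the edges of the pathway. Kmo, a kynurenine enzyme on the competing route of tryptophan breakdown, was 5.88, 5.51 and 5.41 in control normoxia and 4.54, 4.96 and 4.98 in control hypoxia. It was 5.29, 5.50 and 5.35 in knockout normoxia and 4.81, 4.74 and 4.79 in knockout hypoxia. Every hypoxic lung lay below every normoxic lung. Within control and knockout lungs 27.7% and 19.8% of all genes had no overlap, and the share over both genotypes together was not counted. Kmo fell by 0.68 over both genotypes (limma adjusted p = 0.0019, exact permutation p = 0.005, the smallest possible). Its call held without each of the 12 arrays in turn.

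Tgm2, the transglutaminase that can attach serotonin to proteins, rose by 0.36 ± 0.07 (adjusted p = 0.0057). It was 10.2, 9.98 and 10.2 in control normoxia and 10.6, 10.6 and 10.5 in control hypoxia. Slc29a4, the plasma membrane monoamine transporter that also takes up serotonin, rose by 0.28 ± 0.07 (adjusted p = 0.018). It was 4.38, 4.38 and 4.45 in knockout normoxia and 4.70, 4.72 and 4.77 in knockout hypoxia, groups that did not overlap, as for 19.8% of all genes in knockout lungs. In control lungs it was 4.53, 4.53 and 4.58 in normoxia and 4.55, 4.91 and 4.88 in hypoxia, which overlapped (adjusted p = 0.13). Both genes kept their calls without each array in turn.

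Gch1 and Qdpr, enzymes that make and recycle the tetrahydrobiopterin cofactor of tryptophan hydroxylase, rose by 0.51 ± 0.14 and 0.24 ± 0.07 (adjusted p = 0.031 and 0.041). Gnaq, the G protein subunit that couples 2A and 2B receptors to phospholipase C, fell by 0.33 (adjusted p = 0.022). Leaving out each of the 12 arrays in turn, these calls held in 5, 2 and 6 cases respectively, with changes of 0.41 to 0.61, 0.20 to 0.28 and -0.40 to -0.29. Without the 3 arrays high in Nppa or Ucp1, Kmo (-0.57, adjusted p = 0.038) and Slc29a4 (0.35, adjusted p = 0.039) passed. In that setting Tgm2 was 0.39 (adjusted p = 0.051), Gch1 0.39 (adjusted p = 0.30), Qdpr 0.29 (adjusted p = 0.090) and Gnaq -0.31 (adjusted p = 0.19), and these 4 did not. The nuclear RNA list, 9 long noncoding RNAs, fell in 5 of 9 over both genotypes with every array, against 14.7% of all genes called. With its mean as a covariate the changes were 0.11 for Gch1, 0.22 for Qdpr, -0.11 for Gnaq, 0.26 for Tgm2, 0.23 for Slc29a4 and -0.62 for Kmo, and none passed (adjusted p = 0.94, 0.68, 0.89, 0.53, 0.65 and 0.27). That covariate left 49 calls among all genes, against 3622. It moved with oxygen itself, at 5.97 to 6.43 in control normoxia and 5.40 to 5.57 in control hypoxia. In knockout lungs it was 5.74 to 6.18 in normoxia and 5.47 to 5.84 in hypoxia, which overlapped. A call lost in this fit therefore cannot separate hypoxia from the covariate.

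**Figure D5:**
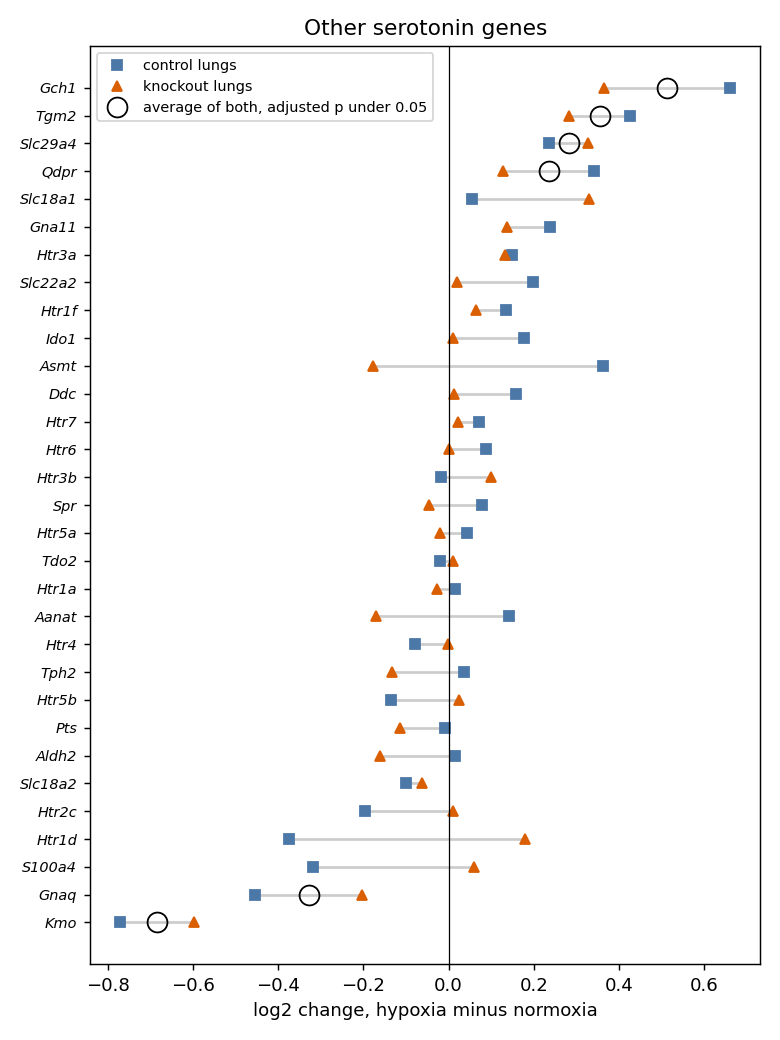
Log2 change with hypoxia of 31 other serotonin and tryptophan genes in control lungs (squares) and knockout lungs (triangles), with circles at the mean of both where the limma adjusted p was under 0.05. Kmo is lowest at -0.68 and Gch1 highest at 0.51, and most receptors lie near 0.

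The rest of synthesis, storage and reception gave no call in any contrast. Tph2, the neuronal hydroxylase, was 3.00 to 3.36 in the 12 lungs, and Ddc, which converts the hydroxylated amino acid to serotonin, was 4.42 to 4.92. Slc18a2, the vesicle transporter, was 3.36 to 3.91. Of the receptors outside the 7 members, Htr1d had the largest hypoxia difference in control lungs, -0.38 ± 0.12 (adjusted p = 0.074), and 0.18 ± 0.12 in knockout lungs (adjusted p = 0.62). Its group means, 3.48 to 3.86, were close to the olfactory receptor gauge. With hypoxia in control lungs, Htr1a was 0.01 ± 0.12, Htr2c was -0.20 ± 0.14, Htr3a was 0.15 ± 0.10, Htr4 was -0.08 ± 0.10 and Htr7 was 0.07 ± 0.09. All group means of Tph2, Slc18a2, Htr1a, Htr3a, Htr4 and Htr7 lay below 3.76, the 95th percentile of that gauge. Differences near 0 in these genes therefore say little about their regulation.

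The cells that carry or make serotonin were followed by their markers, to be read against 11.5% of all genes called with hypoxia in control lungs, 1.14% in knockout lungs and 14.7% over both. In the interaction 0.00405% of all genes were called. Of 9 platelet genes 0 passed in control lungs and 0 in knockout lungs, while 3 fell over both genotypes, Gp6, Ppbp and Itgb3. The platelet mean was 5.66 to 6.50 in control normoxia, 5.60 to 6.17 in control hypoxia, 5.95 to 6.25 in knockout normoxia and 5.46 to 5.96 in knockout hypoxia. Among platelet chemokine genes Pf4 was 4.97 to 5.92 over all lungs, and Ppbp was 7.53 to 10.1 and fell by 1.02 over both genotypes (adjusted p = 0.037). Blood had been washed out by perfusion, yet the red cell genes Hbb-bt and Alas2 were 7.23 to 8.67 and 7.47 to 8.79, so blood RNA was still measured. Of 10 mast cell genes 0 passed within either genotype and 1 fell over both, the receptor gene Kit. Over both genotypes 5 of the 10 changes lay above 0 and 5 below. Kit was 9.21 to 10.3 in the 12 lungs, and Cpa3, the mast cell carboxypeptidase, was 3.32 to 4.46. All group means of Tpsab1, Mcpt4, Cma1, Ms4a2 and Fcer1a lay below 3.76, the 95th percentile of the olfactory receptor gauge. The fall of Kit alone is therefore not a result about mast cells. Of 8 measured neuroendocrine genes 2 rose with hypoxia in control lungs, Syp and Uchl1, and 0 in knockout lungs, while 0 of 8 passed the interaction. Smooth muscle genes rose in 5 of 10 in control lungs, among them Myh11, the smooth muscle myosin, and in 0 of 10 in knockout lungs. In the interaction 0 of 10 passed. All 10 lay below 0 there, and 5 had an unadjusted limma p under 0.05, against 8.25% of all genes. The thymocyte gene Rag1 was 3.29 to 3.62.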

How the data were processed

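Per the submitters' processing notes, the deposited log2 expression values were made with RMA; no version, genome build or filter is stated in the sources used here. The 12 arrays hold 25428 probe sets from 2.41 to 13.7 and have identical sorted values, so global shifts in RNA cannot be seen. Array number, 3 a group, limits precision. Platform annotation gave 1 symbol to 24705 probe sets; the brighter probe set stood for a gene (24704 genes, no filter). Replicates are taken as separate mice.

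Group means of all 12 arrays were fitted with limma 3.58.1 (R 4.3.3; 8 residual degrees of freedom), two-sided, with 7 contrasts: hypoxia and knockout effects within each state and averaged, and their interaction. Scripts were tested on simulated data. Exact permutation tests used 20 regroupings, or 400 for averaged contrasts. Named were all members, called genes of the other serotonin list, some fixed genes whatever their values, and defining markers. Per member the 3 most correlated genes were also picked, with placeholder symbols left out, and only some are shown. Members and lists were chosen with earlier results of these data known. Alternatives were a replicate block, no dim genes, an intensity trend, only the groups compared, nuclear RNA or Y-linked gene means as covariates, the mean over probe sets, and leaving out arrays. Same-numbered arrays of different groups had correlated deviations with a median r of 0.0208 (15 pairs), so numbers were not treated as pairs.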

Additional observations from a re-analysis of the deposited data

How the results depend on the processing

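RMA values without a background signal do not show how far the dim members, Tph1, Htr2a and Htr2b, stood above background; these 3 were not tested when genes with a mean below the median of all values were left out. No member was called under any alternative between genotypes, in the interaction or with hypoxia in control lungs. With hypoxia in knockout lungs 0 members were called, against 1, with the replicate block, the nuclear RNA covariate, the Y-linked covariate, a fit of only the 6 arrays, and without the arrays high in Nppa or Ucp1, a setting chosen after seeing the data; leaving out 1 array gave 0 to 1. Maoa was then -0.38 with the replicate block (adjusted p = 0.18) and -0.41 with the nuclear RNA covariate (adjusted p = 0.071). Averaged over genotypes, leaving out 1 array gave 0 to 1 members, with Maoa called only without control normoxia 1 (-0.19, adjusted p = 0.047). The replicate block, which shares only a number, left 40 calls among all genes in knockout lungs, against 282, and 2 of 12 arrays correlated best with their own number.

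Of the other serotonin genes, 4 were called with hypoxia in control lungs, against 0 with the nuclear RNA covariate, 2 with the Y-linked covariate, 1 with only the 6 arrays, and 1 to 6 without single arrays. In knockout lungs the count of 0 became 1, Kmo, with only the 6 arrays, and 0 to 1 without single arrays. Averaged over genotypes, 6 became 3 with the replicate block, 0 with the nuclear covariate, 3 with the Y-linked covariate, 2 without the arrays high in Nppa or Ucp1, and 3 to 7 without single arrays. The cause was not tested.

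Sign changes occurred only in log2 differences that passed in neither setting. With the nuclear covariate, Htr2b became 0.11, 0.046 and 0.080 (hypoxia in control, in knockout, averaged), 0.12 (knockout in normoxia) and -0.069 (interaction); Tph1 became 0.26, 0.083, 0.17, 0.071 and -0.18 in the same order. Maob became -0.34 (hypoxia in control), -0.26 (averaged), -0.13 and 0.026 (knockout in normoxia and in hypoxia) and 0.16 (interaction), and Slc6a4 -0.0092 (hypoxia in knockout). With the Y-linked covariate Slc6a4 became 0.10 (hypoxia in control) and 0.12 (averaged). With the replicate block, hypoxia in knockout became -0.11 for Slc6a4, 0.0091 for Tph1 and 0.069 for Maob, knockout in hypoxia 0.028 for Tph1 and 0.026 for Maob, knockout averaged 0.044 for Maob, and the interaction -0.081 for Slc6a4. Without the arrays high in Nppa or Ucp1, Slc6a4 became 0.24 (hypoxia in control), 0.19 (averaged), -0.0046 (knockout in hypoxia) and -0.098 (interaction). In that setting Htr2b became 0.046 and Tph1 0.011 (hypoxia in knockout), Tph1 0.066 (knockout in hypoxia), Maob -0.063 (hypoxia averaged) and 0.078 (knockout averaged), and the interaction -0.21 for Htr1b and -0.046 for Htr2a.

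Leaving out single arrays, ranges that crossed 0 were as follows. Htr2a was -0.039 to 0.21 with hypoxia in control and -0.0068 to 0.26 in the interaction, and Htr1b -0.0090 to 0.37 in the interaction. Htr2b was -0.12 to 0.016 with hypoxia in knockout, -0.19 to 0.13 for knockout in normoxia and -0.024 to 0.14 for knockout averaged. Slc6a4 was -0.23 to 0.24, -0.048 to 0.077 and -0.11 to 0.13 with hypoxia in control, in knockout and averaged, -0.0046 to 0.46 for knockout in hypoxia and -0.22 to 0.24 in the interaction. Tph1 was -0.098 to 0.038 with hypoxia in knockout and -0.079 to 0.066 for knockout in hypoxia. Maob was -0.16 to 0.031 and -0.026 to 0.071 with hypoxia in knockout and averaged, -0.010 to 0.14 for knockout in normoxia and -0.070 to 0.027 for knockout averaged.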
